A study of Homo sapiens with 6 samples.

Results

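The MS4A cluster is a run of related genes on the long arm of human chromosome 11 that encode small proteins crossing the cell membrane with 4 helices. The members described here were listed by symbol, with earlier results of these data known. They are MS4A1, MS4A3, MS4A4A, MS4A6A, MS4A7 and MS4A14, which are 6 of the 30017 genes in the count table. Of these members, 5 had enough counts to be among the 14758 genes tested, and MS4A3 did not. All libraries came from BLaER1-CTCF-mAID, a single subclone of the BLaER1 B cell leukaemia line. BLaER1 carries CEBPA, a myeloid transcription factor, in a form that β-estradiol switches on, and it is converted into induced macrophages (iMacs) by β-estradiol with the cytokines IL-3 and CSF-1. The subclone carries CTCF, a chromatin architectural protein, fused to an auxin-inducible degron, so that auxin (IAA) removes the CTCF protein. The 0 h group received no factors and no auxin, the 96 h control group was converted for 96 h without auxin, and the 96 h CTCF-depleted group was converted for 96 h with auxin added together with the factors. Each group held 2 biological replicates, making 6 libraries of ribosomal-RNA-depleted total RNA. Any effect of auxin other than on CTCF cannot be told apart from that of CTCF loss, because no degron-free cells with auxin were among these samples.

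MS4A1 encodes CD20, a surface protein of B cells that associates with the B cell receptor and is the target of therapeutic antibodies. MS4A4A, MS4A6A and MS4A7 are known from monocytes and macrophages, where the MS4A4A protein associates with the beta-glucan receptor dectin-1 (encoded by CLEC7A). MS4A3 marks granulocyte-monocyte progenitors, and its protein binds the cell cycle phosphatase encoded by CDKN3. MS4A2, a family gene outside the members, encodes the beta chain of the high-affinity IgE receptor of mast cells and basophils. A single gene cluster therefore holds B cell and myeloid genes side by side, and the conversion passes from one of these identities to the other. The comparisons asked how each gene changed over the conversion and whether it did so without CTCF.

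Total counts ranged from 9273470 to 12718780 per library, so that 3 counts, the upper limit that a count of 0 allows, corresponded to 0.225 to 0.309 CPM (counts per 1000000 counts of the library, scaled by TMM factors). A chi-square statistic compared the replicates of each group over the genes with at least 10 counts in the pair. It was 1.71 to 2.69 per degree of freedom, so each pair differed beyond sampling noise. The labels were checked against marker lists. Of 19 B cell markers tested, 16 fell and 1 rose in the 96 h control group against 0 h, and of 18 macrophage markers tested all 18 rose. By the same thresholds, 25.4% of all genes tested rose and 22.9% fell. The summed level of the macrophage list went from between 56.4 and 58.2 CPM at 0 h to between 5334 and 5567 CPM in the control group. CTCF transcript levels check nothing here, because the degron acts on the protein. In bulk RNA, fewer cells of a type and less RNA per cell cannot be told apart.

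In hg38 coordinates, the 16 MS4A genes of GENCODE release 44 occupied 744.7 kb of chromosome 11, from 60056587 to 60801305, and the members lay within 414.2 kb. MS4A3 came first, at chr11:60056587-60071115 on the plus strand. MS4A6A followed at chr11:60172015-60184666 on the minus strand, next to MS4A4A at chr11:60185657-60318080 on the plus strand. MS4A7 (chr11:60378485-60395951) and MS4A14 (chr11:60378530-60417756) overlapped on the plus strand. MS4A1, at chr11:60455846-60470752 on the plus strand, was the last member. MS4A4A also overlapped MS4A4E, a non-member on the opposite strand, and its RefSeq start lies inside the longer GENCODE gene. The counts of MS4A4A and MS4A4E are uncertain, because the strand setting of the counting is not given in the sources used here. Those of MS4A7 and MS4A14 are uncertain if the counting gave both genes a shared stretch, because strand cannot separate its reads. The RefSeq start of MS4A14 used here (60396459) lies beyond the end of MS4A7, and the annotation used for counting is not given. Transcripts of MS4A14 shared 2.05% of their stretches of 50 bases with other MS4A genes, those of MS4A7 1.88%, those of MS4A6A 1.76%, those of MS4A4A 0.3%, and those of MS4A1 and MS4A3 none.

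Promoter sequences are shown for the 4 cluster genes that the comparisons turn on, 3 macrophage members and MS4A4E. MS4A6A and MS4A4E had at most 1 count at 0 h and MS4A7 had few, and all 3 were higher at 96 h, whereas MS4A4A was not called. Each line gives the 250 bases before a RefSeq start (GRCh38.p14), 5′ to 3′ on the strand of the gene. MS4A6A had 4 such starts, and the one farthest upstream is shown. Capitals mark matches on either strand to a C/EBP motif (TTNNGCAA) or a PU.1 motif (GAGGAA), the motifs of the factor families that include CEBPA and SPI1.
MS4A6A, chr11:60184667-60184916, minus strand: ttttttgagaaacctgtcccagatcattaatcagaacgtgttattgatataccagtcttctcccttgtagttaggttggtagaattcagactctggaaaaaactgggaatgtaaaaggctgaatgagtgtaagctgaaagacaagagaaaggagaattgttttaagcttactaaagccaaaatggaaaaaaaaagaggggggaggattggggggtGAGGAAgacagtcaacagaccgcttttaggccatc
MS4A4E, chr11:60243138-60243387, minus strand: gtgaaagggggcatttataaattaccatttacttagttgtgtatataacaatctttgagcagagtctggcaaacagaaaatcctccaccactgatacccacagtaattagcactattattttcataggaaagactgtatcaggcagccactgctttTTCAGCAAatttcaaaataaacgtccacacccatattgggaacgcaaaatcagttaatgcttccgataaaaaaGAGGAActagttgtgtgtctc
MS4A4A, chr11:60280416-60280665, plus strand: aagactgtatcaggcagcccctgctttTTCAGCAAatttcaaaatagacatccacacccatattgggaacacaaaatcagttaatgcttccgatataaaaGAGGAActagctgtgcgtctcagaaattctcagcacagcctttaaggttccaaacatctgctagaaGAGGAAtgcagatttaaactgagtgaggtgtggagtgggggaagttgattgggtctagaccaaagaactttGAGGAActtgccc
MS4A7, chr11:60378282-60378531, plus strand: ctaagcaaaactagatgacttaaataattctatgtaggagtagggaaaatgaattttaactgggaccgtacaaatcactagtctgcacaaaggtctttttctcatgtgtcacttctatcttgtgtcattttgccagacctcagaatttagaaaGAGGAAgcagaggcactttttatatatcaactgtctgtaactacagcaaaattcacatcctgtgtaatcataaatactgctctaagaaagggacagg

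The MS4A6A window shown held 1 PU.1 match, at position -35 (the first base of the match, with -1 the last base before the start), and no C/EBP match. Of its other windows, that of start 60184447 held a PU.1 match at -129, that of start 60183083 a C/EBP match at -219, and that of start 60183331 neither. The MS4A7 window held 1 PU.1 match, at -97. The MS4A4E window held a C/EBP match at -94 and a PU.1 match at -21, and the MS4A4A window held a C/EBP match at -223 and PU.1 matches at -150, -84 and -13. Over 35116 RefSeq promoter windows of the same length, 9.05% held a C/EBP match and 23.6% a PU.1 match. The alignment of MS4A4E with MS4A4A used the longer promoter sequences from which the windows shown were taken, and it ran beyond those windows. It covered 171 columns, of which 159 (93%) were identical, with the MS4A4A copy shifted upstream of its start. The MS4A3 window held C/EBP matches at -233 and -68, and the MS4A14 window held neither motif. These matches are letters in a window and do not show binding.

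MS4A1 was the leading member at 0 h and fell over the conversion. Its level was 13.3 and 13.4 CPM in the 0 h replicates (129 and 178 counts) and 0.618 and 0.556 CPM in the 96 h control replicates (7 and 6 counts). The groups lay far apart, and the 0 h replicates were nearly equal in CPM. The fitted log2 fold change was -4.48 ± 0.29 (SE, n = 2 per group, edgeR adjusted p = 1.72e-20). MS4A1 remained above the level of 3 counts in both control libraries, at a mean of 0.587 CPM.

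MS4A6A went from almost no reads to the highest level in the cluster. It had 0 and 1 counts in the 0 h replicates and 334 and 329 counts in the control replicates, or 29.5 and 30.5 CPM. The control replicates were close together, at a mean of 29.97 ± 0.70 CPM (SD, n = 2). The ratio of the control to the 0 h group was 690, with a 95% interval of 123 to 27300 that covers counting error only, and the edgeR adjusted p was 2.19e-32. Its fitted log2 fold change was 8.44 without 0 h replicate 1 and 11.30 without 0 h replicate 2.

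MS4A7 was already detected before conversion, with 7 and 5 counts (0.722 and 0.375 CPM) at 0 h. In the control replicates it had 125 and 93 counts (11.03 and 8.61 CPM), so the groups did not overlap. It rose by a log2 fold change of 4.21 ± 0.32 (SE, n = 2 per group, edgeR adjusted p = 7.35e-18). MS4A14, a less studied family member whose GENCODE gene overlaps MS4A7, also rose. It had 2 and 0 counts at 0 h and 28 and 18 counts in the control replicates (2.47 and 1.67 CPM). The ratio of the groups was 23.9, with a 95% interval of 6.26 to 204 for counting error, and the edgeR adjusted p was 1.8e-07. Its fitted log2 fold change was 7.56 without 0 h replicate 1 and 3.22 without 0 h replicate 2, past both thresholds each time.

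MS4A4A did not pass the test. It had 21 and 19 counts (2.17 and 1.43 CPM) at 0 h and 15 and 20 counts (1.32 and 1.85 CPM) in the control replicates, so the groups overlapped. The log2 fold change was -0.14, with a 95% interval of -0.94 to 0.65 (edgeR adjusted p = 0.751), which leaves out changes as large as those of the other tested members. MS4A3 had 0 counts in every library but 1, a control replicate with 1 count, and was not tested.

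Of the 5 members tested, 3 rose (MS4A6A, MS4A7 and MS4A14), 1 fell (MS4A1) and 1 was not called. A gene was called where the adjusted p was below 0.01 and the log2 fold change was larger than 0.6 in either direction. Over all genes tested, 25.4% were called higher and 22.9% lower in this comparison. The median log2 fold change over the 5 members, 4.21, is the value of MS4A7, and the members went in both directions. Over all genes tested the median was 0.02.

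**Figure D1:**
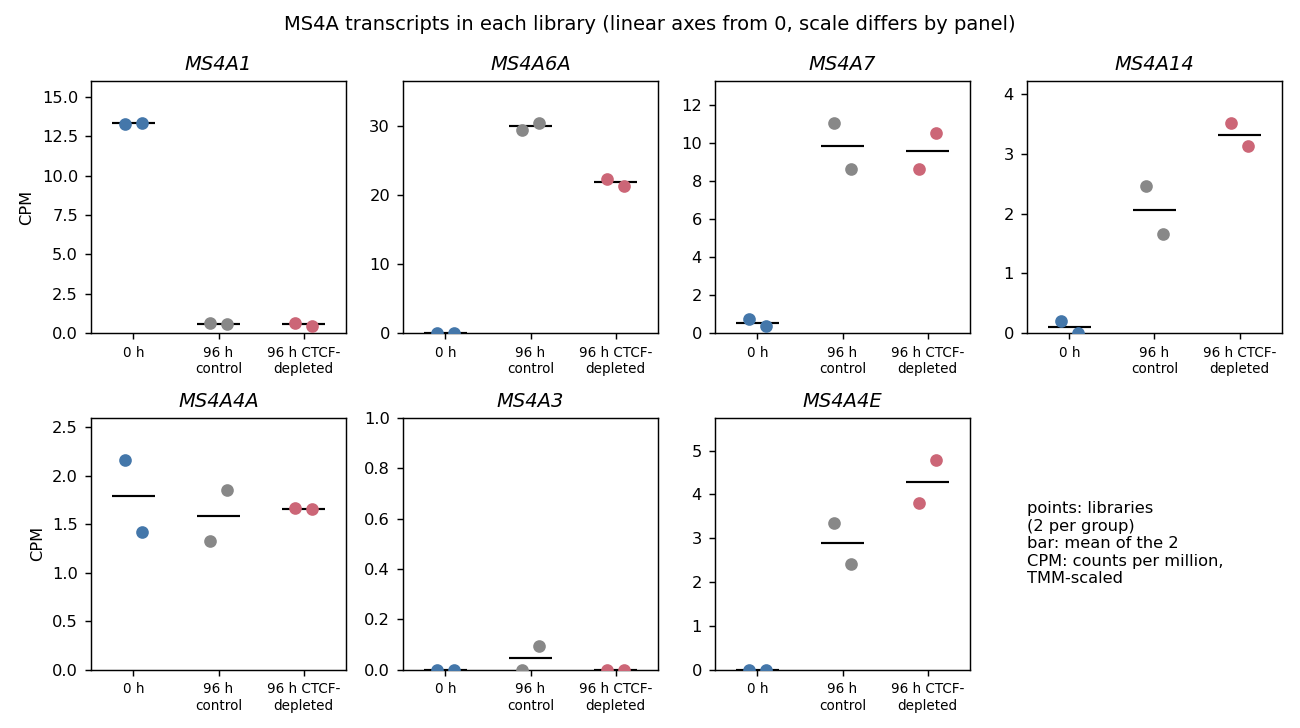
Level of each MS4A member and of the neighbouring family gene MS4A4E in every library, in CPM on linear axes from 0, with points for the 2 replicates of each group and a bar at their mean. MS4A1 is high only at 0 h, MS4A6A, MS4A7, MS4A14 and MS4A4E are high in both 96 h groups, MS4A4A overlaps between the groups, and MS4A3 has a single count.

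Within the summed counts of the 6 members, the leading gene changed. MS4A1 took 81.1% and 87.7% of them in the 0 h replicates and 1.38% and 1.28% in the control replicates. MS4A6A took 65.6% and 70.4% in the control replicates, and MS4A7 had a mean share of 22.2% ± 3.28 (SD, n = 2). MS4A4A, whose own level did not pass the test, had a mean share of 11.3% at 0 h and 3.61% in the control group. The summed level of the members was 16.4 and 15.2 CPM at 0 h and 44.9 and 43.3 CPM in the control group.

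**Figure D2:**
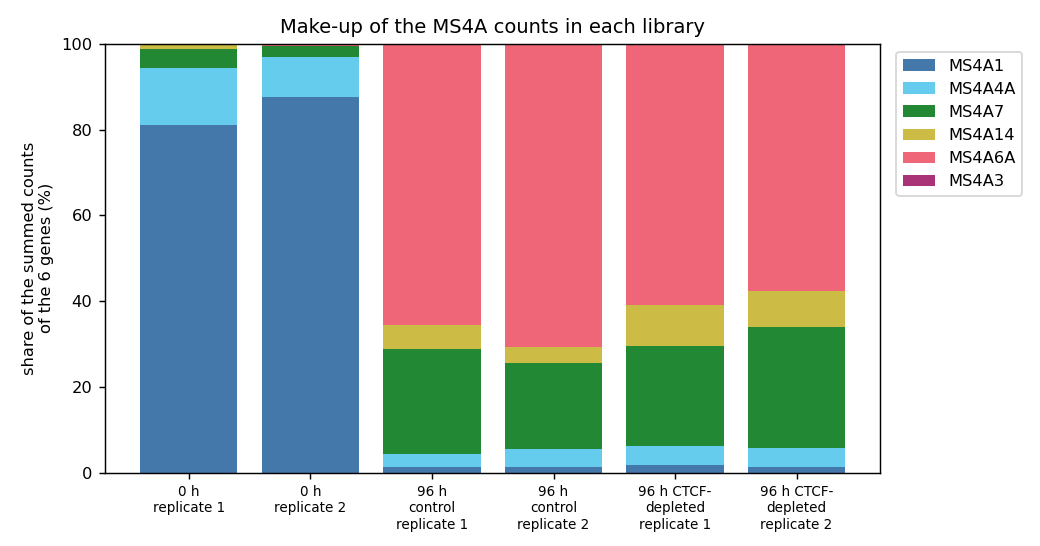
Share of the summed counts of the 6 members taken by each member, in percent, for each of the 6 libraries. MS4A1 fills at least 81.1% of each 0 h bar and MS4A6A at least 57.6% of each 96 h bar. MS4A3 is too low to be seen.

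Per kilobase of exon, MS4A6A was the highest member in the control group, at a mean of 10.8 CPM per kb, followed by MS4A7 at 3.27 CPM per kb. MS4A4A (0.604 CPM per kb) and MS4A14 (0.56 CPM per kb) came next, and MS4A1 was at 0.158 CPM per kb. Replicates of MS4A4A and MS4A14 overlapped on this scale, so their order was within the spread. At 0 h the order was MS4A1 (3.58 CPM per kb), MS4A4A (0.683), MS4A7 (0.182), MS4A14 (0.0279) and MS4A6A (0.0135). The last 2 of these means rest on 3 counts in all.

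**Figure D3:**
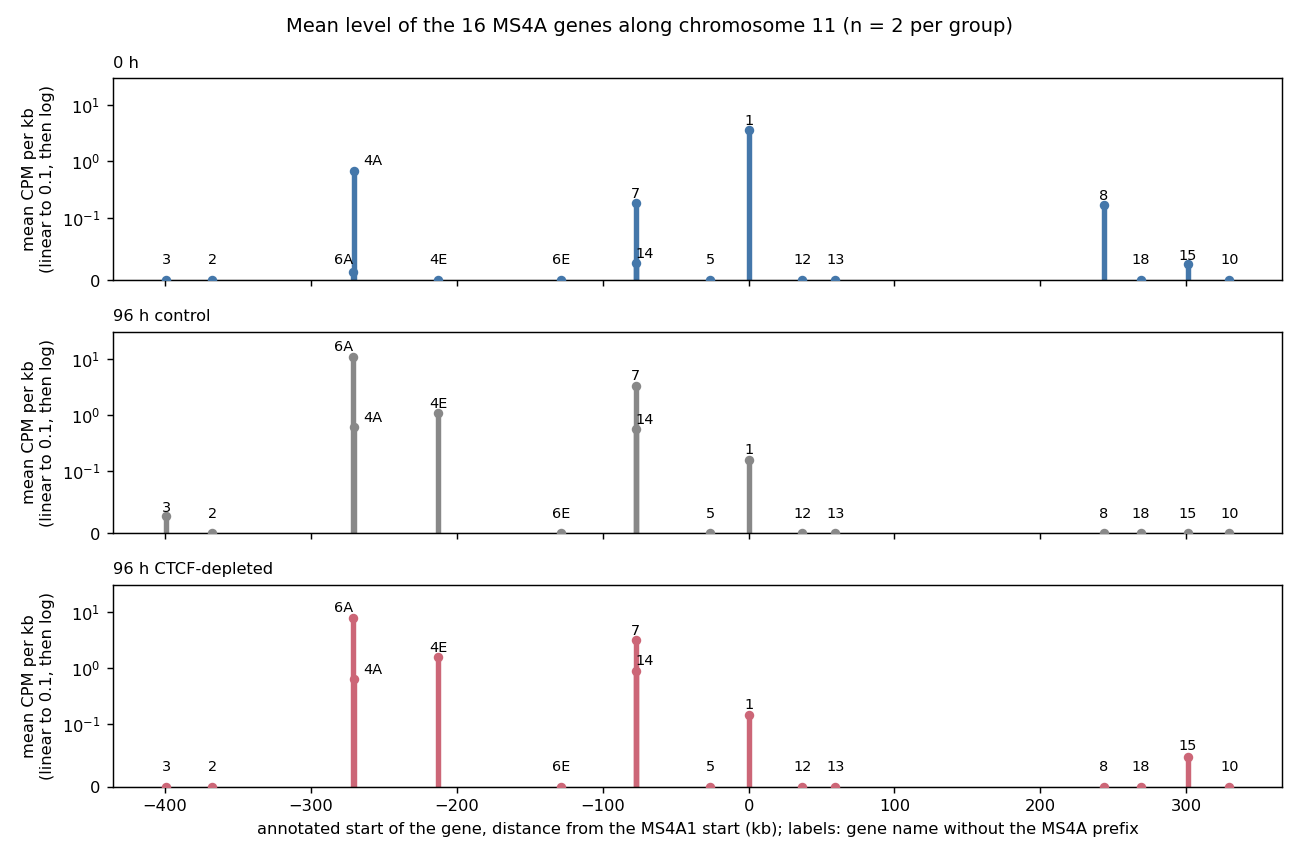
Mean CPM per kilobase of exon for the 16 annotated MS4A genes, plotted at the distance of their annotated start from that of MS4A1 in kb, with a panel per group (n = 2). The vertical axis is linear to 0.1 and logarithmic above. The genes to the left of MS4A1 that gain reads at 96 h are interspersed with genes that have none.

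The other family genes were almost all without reads. Of 12 in the table, counting the distant relatives TMEM176A and TMEM176B outside the cluster, 8 had no count in any library. These were MS4A2, MS4A5, MS4A6E, MS4A10, MS4A12, MS4A13, MS4A18 and TMEM176B. MS4A8 had 2 and 4 counts at 0 h and 0 in the other libraries, MS4A15 had at most 2 counts in any library, and TMEM176A had 1 count in all. MS4A4E was the exception. It had 0 counts in both 0 h replicates and 38 and 26 counts (3.35 and 2.41 CPM) in the control replicates. That was 22.2 times the level of 3 counts over the 0 h group (edgeR adjusted p = 6.12e-11). The ratio to 0 h had a lower 95% limit of 17.5 for counting error. The MS4A4E level of 1.06 CPM per kb in the control group was above that of MS4A4A, the member on the opposite strand whose promoter sequence aligned in part with that of MS4A4E.

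No member was called on CTCF depletion, but only MS4A7 had a 95% interval that lay within the fold threshold in both directions. Of the 5 members tested, 0 were called higher and 0 lower by edgeR, against 5.41% higher and 7.03% lower over all genes tested. With so few genes, 0 calls cannot be told apart from those shares. At an unadjusted p below 0.05 only MS4A6A passed, and DESeq2 also called 0 members in either direction. The median log2 fold change was -0.04 over the 5 members, again the value of MS4A7, and -0.03 over all genes tested.

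MS4A6A was the member with the clearest difference. It was at 22.4 and 21.4 CPM (242 and 232 counts) in the CTCF-depleted replicates against 29.5 and 30.5 CPM in the control replicates. The groups did not overlap, and the gap between them was wider than the spread in either. The fold was 0.731 and the log2 fold change -0.45 ± 0.11 (SE, n = 2 per group), with a 95% interval of -0.68 to -0.23. The edgeR adjusted p was 0.000904, past the p threshold, but the change was smaller than the fold threshold. With DESeq2 the log2 fold change was -0.44 and the adjusted p 0.0674.

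MS4A14 and the non-member MS4A4E, which lie apart in the cluster, had higher values in the CTCF-depleted group without passing the test. MS4A14 was at 3.52 and 3.13 CPM (38 and 34 counts), both above the control values, with a log2 fold change of 0.68 and a 95% interval of -0.01 to 1.36 (edgeR adjusted p = 0.114). MS4A4E was at 3.80 and 4.79 CPM (41 and 52 counts), also above both control values, with a log2 fold change of 0.57 and a 95% interval of -0.01 to 1.15 (edgeR adjusted p = 0.119). For both genes the interval holds no change as well as changes past the fold threshold.

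MS4A7 was at 8.61 and 10.5 CPM (93 and 114 counts), and the groups overlapped. Its log2 fold change was -0.04, with a 95% interval of -0.40 to 0.32 (edgeR adjusted p = 0.884), which leaves out changes past the fold threshold. MS4A1 had 7 and 5 counts (0.648 and 0.461 CPM), and its interval of -1.26 to 1.09 was wide. MS4A4A had 18 counts in each depleted replicate (1.67 and 1.66 CPM), with a log2 fold change of 0.07 and an interval of -0.74 to 0.88. MS4A3 had 0 counts in both.

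**Figure D4:**
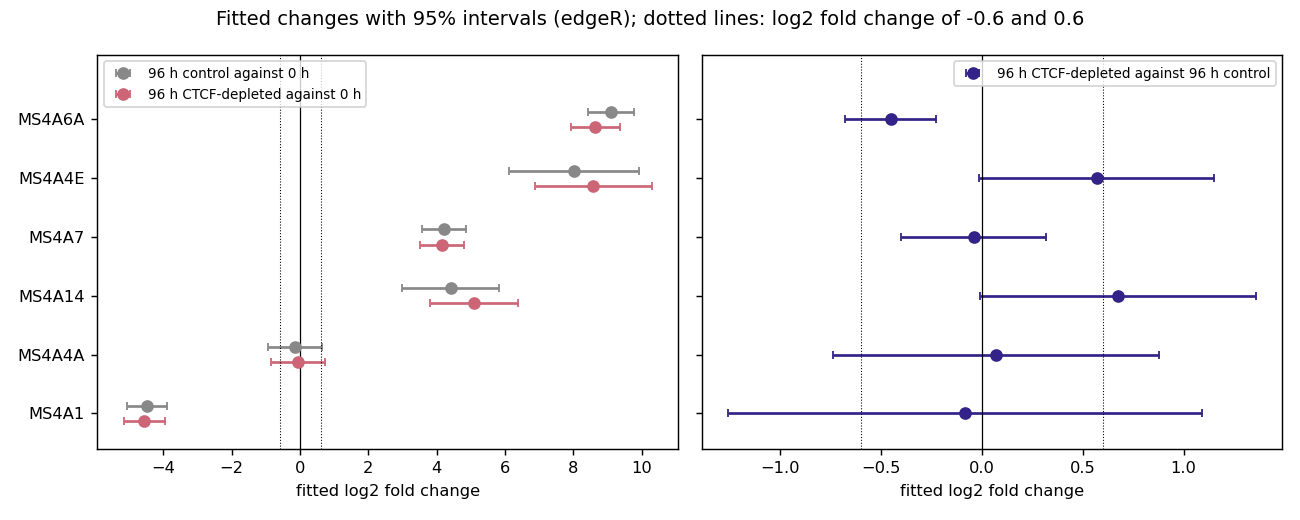
Fitted log2 fold changes with 95% intervals for the 5 members tested and MS4A4E, against 0 h (left, 96 h control in gray and 96 h CTCF-depleted in red) and between the 96 h groups (right), with dotted lines at the fold threshold of 0.6. The fitted values of MS4A6A, MS4A14 and MS4A4E against 0 h rest on 0 to 2 counts in the 0 h group and depend on the prior count. Intervals against 0 h are too narrow for MS4A6A and MS4A14. Those of the control group (8.44 to 9.76 and 2.99 to 5.83) leave out the values of 11.30 and 7.56 found on leaving out a 0 h replicate. On the right, only the interval of MS4A6A leaves out 0.

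Against 0 h, the CTCF-depleted group had the same calls as the control group, with 3 members higher, 1 lower and 1 not called. Over all genes tested, 27.2% were called higher and 25.2% lower. MS4A1 fell by 4.56 on the log2 scale (SE 0.30, edgeR adjusted p = 1.47e-20) and MS4A7 rose by 4.17 (SE 0.32, edgeR adjusted p = 1.35e-17). The ratio to 0 h was 504 for MS4A6A (95% interval 90 to 20000) and 38.3 for MS4A14 (95% interval 10.2 to 322). For MS4A4E, with 0 counts at 0 h, the lower 95% limit of the ratio was 26.3. Without 0 h replicates 1 and 2 in turn, the fitted log2 fold change was 8.02 and 10.88 for MS4A6A and 8.27 and 3.93 for MS4A14, past both thresholds each time. MS4A4A differed by -0.07, with a 95% interval of -0.86 to 0.72. These values share the 0 h libraries with the control comparison.

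In the make-up of the cluster, MS4A6A took 60.8% and 57.6% of the summed member counts in the CTCF-depleted replicates, below both control values. MS4A14 took 9.55% and 8.44%, above the control values of 5.5% and 3.85%. The summed level of the members was 36.9 and 37.1 CPM, below both control values. With 2 replicates against 2, an exact permutation test of such a share cannot give a two-sided p under 0.333, so these shares are values without a test of their own.

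The genes on either side of the cluster were taken from a list running from FAM111B to VPS37C, of which 15 of 22 in the table were tested. Over the conversion 7 rose and 5 fell, with a median log2 fold change of 0.24, against 25.4% higher and 22.9% lower over all genes tested. Those that rose were FAM111A, DTX4, MPEG1, TCN1, STX3, SLC15A3 and VPS37C, and those that fell were FAM111B, CCDC86, PRPF19, TMEM109 and TMEM132A. Between the 96 h groups 1 rose and 1 fell, near the shares of 5.41% higher and 7.03% lower over all genes tested. TCN1, which encodes a vitamin B12-binding protein of granulocyte granules, was without a read in both 0 h replicates. The control replicates held 6 and 10 counts, and the CTCF-depleted replicates 61 and 38. It rose by a log2 fold change of 2.64 ± 0.40 (SE, edgeR adjusted p = 2.7e-07), and its start lies at -589.4 kb from that of MS4A1, beyond the MS4A3 end of the cluster. MPEG1, which encodes a pore-forming protein of macrophages, was at 59 and 69 counts with CTCF and at 28 and 30 counts without it. It fell by 1.11 on the log2 scale (SE 0.27, edgeR adjusted p = 0.000718).

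Genes whose products are known to associate with MS4A proteins were followed beside them. Of 12 such genes, 11 were tested. Over the conversion 7 rose and 3 fell, against 25.4% higher and 22.9% lower over all genes tested. On CTCF depletion 2 rose and 2 fell, against 5.41% higher and 7.03% lower. Beside CD20, the B cell receptor genes CD79A and CD79B fell over the conversion, with log2 fold changes of -1.14 and -0.74, against -4.48 for MS4A1. These falls were not tested against each other. Between the 96 h groups CD79A (-0.17) and CD79B (-0.17) were not called. CD37 and CD53, tetraspanin genes of leukocytes, rose by 4.13 and 1.17 over the conversion, and CD37 rose by a further 0.97 on CTCF depletion (edgeR adjusted p = 9.68e-10). CD40, a costimulatory receptor gene, rose by 0.95 over the conversion and by 0.79 on CTCF depletion (edgeR adjusted p = 4.63e-07).

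Beside the macrophage members, CLEC7A had 0 counts at 0 h and 286 and 288 in the control replicates, with a lower 95% limit of 161 on the ratio for counting error. It had 190 and 154 counts in the CTCF-depleted replicates and fell by 0.71 on the log2 scale (SE 0.13, edgeR adjusted p = 1.06e-05), while MS4A4A stayed at 15 to 20 counts in all the 96 h libraries. TREM2, a lipid receptor gene of macrophages, was without a read at 0 h, with 42 and 26 counts in the control group against 24 and 12 after CTCF depletion, a difference between the 96 h groups that did not pass (edgeR adjusted p = 0.0541). The adaptor genes TYROBP and FCER1G had at most 2 counts at 0 h and at least 434 in each 96 h library. FCER1A, which encodes the chain that pairs with MS4A2 in the IgE receptor, had 9 and 21 counts in the control group and 5 and 4 after CTCF depletion, too few to be tested, beside no read of MS4A2. CDKN3, whose product binds MS4A3, was not called over the conversion (log2 fold change -0.54) and fell by 0.84 on CTCF depletion (edgeR adjusted p = 1.03e-06). CDK2, whose product is a substrate of that phosphatase, fell by 1.53 over the conversion.

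Of 20 regulators of B cell and macrophage genes, all were tested. Over the conversion 10 rose and 7 fell, against 25.4% higher and 22.9% lower over all genes tested. PAX5 and EBF1, which maintain B cell identity, fell by 3.12 and 3.04 on the log2 scale, IRF4 fell by 3.23 and POU2AF1, a B cell coactivator gene, by 3.89. SPI1, which encodes PU.1, rose by 2.90, CEBPB by 4.74 and IRF8 by 4.78. CEBPA itself was not called (-0.08), and these counts do not separate the introduced copy from the native gene. On CTCF depletion 2 rose, among them TFEC by 1.16, and 3 fell, IRF8 by 1.06, CEBPD by 1.56 and POU2AF1 by 0.67. The shares over all genes tested were 5.41% higher and 7.03% lower. SPI1 (-0.26) and CEBPB (-0.50) were lower without reaching the fold threshold.

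Genes whose pattern over the 6 libraries was most like that of each member were found from log2 CPM (prior count 2) centred on its mean, by the root mean square difference. For MS4A6A they were KIAA0513 (0.089), LILRB3 (0.128), an inhibitory receptor gene of myeloid cells, and MIR223 (0.147), the row named for a myeloid microRNA gene. For MS4A7 they were LOC101928383 (0.14), S100A11 (0.168) and FNBP1 (0.168). For MS4A14 they were MIR646 (0.184), DUSP5 (0.186) and TRNP1 (0.228), and for MS4A1 LINC00617 (0.157), LRMP (0.162) and TEX15 (0.171). MS4A4A, whose centred group means stayed within 0.08, was nearest to the small RNA genes RNU6-36P (0.064), RNU4-1 (0.093) and SNORD33 (0.099). These are descriptions over 6 libraries in which many genes share the step from 0 h to 96 h.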

How the data were processed

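Total RNA was sequenced after ribosomal RNA depletion with a stranded kit. The authors aligned reads to hg38 with STAR 2.6.1d in the nf-core/rnaseq pipeline and counted them over protein-coding exons with featureCounts 2.0.6 (submitters' processing notes). The annotation release and the strand setting are not given in the sources used here. The deposited values are raw counts per gene for 30017 genes, of which 14758 passed edgeR's filter on low counts. They include rows named for noncoding genes, such as MIR223 and SNORD33, so they were not limited to protein-coding genes.

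Here, edgeR 4.0.16 in R 4.3.3 (TMM factors, quasi-likelihood test, condition as the only term, all 6 libraries, Benjamini-Hochberg adjustment over the genes tested) gave fold changes and adjusted p-values, and genes were called where the adjusted p was below 0.01 and the log2 fold change larger than 0.6 in either direction. The libraries are labelled as separate replicates. The script was tested on simulated counts. DESeq2 1.42.0, other filters, thresholds and normalization, a replicate block and leaving out each library were the alternatives. The numbers of the replicates showed no pairing of the samples. Positions came from GENCODE release 44 and promoters from a table of RefSeq sequences in which 5 of the 6 members were matched. Figures were drawn with matplotlib 3.10.9.

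The members and gene lists were chosen with earlier results of these data known. Named were all members, every other MS4A gene in the table, each neighbour called, the partner genes beside their member, up to 4 genes per list and direction, those of smallest adjusted p, in the comparisons of the 96 h control with 0 h and of the 96 h groups, and the 3 genes most like each member. The B cell, macrophage, granulocyte, mast cell and T and NK cell lists are given as checks of the labels. The values of 1 gene that this rule would name are not reported here.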

Additional observations from a re-analysis of the deposited data

How the results depend on the processing

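Member calls kept their counts under DESeq2, RLE normalization, no filter on low counts, only the 4 libraries compared, an absolute log2 fold change above 1 and leaving out each library. With at least 10 counts in every library, 0 members were called higher and 0 lower in both comparisons against 0 h, because only 1 member, MS4A4A, then stayed in the test. At an adjusted p below 0.05 with no fold threshold, 1 member was called lower on CTCF depletion, MS4A6A at -0.45. That threshold gave 2375 genes higher and 3330 lower over the whole table between the 96 h groups, and 5500 and 5658 lower against 0 h in the control and depleted groups. With an absolute log2 fold change above 1 the counts between the 96 h groups were 409 and 436, and 2075 fell over the conversion.

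The signs of small, uncalled differences depended on single libraries. With each library left out in turn, MS4A4A ranged from -0.49 to 0.14 over the conversion (0.14 without 0 h replicate 1, 0.05 without 96 h control replicate 1), from -0.12 (without 96 h control replicate 1) to 0.36 between the 96 h groups, and from -0.39 to 0.25 (without 0 h replicate 1) in the CTCF-depleted group against 0 h. Between the 96 h groups, MS4A7 ranged from -0.18 to 0.18 (0.18 without 96 h control replicate 1, 0.13 without 96 h CTCF-depleted replicate 1), and MS4A1 from -0.31 to 0.17 (0.03 without 96 h control replicate 1, 0.17 without 96 h CTCF-depleted replicate 2). The adjusted p of MS4A6A between the 96 h groups ranged from 0.000492 to 0.0674 over the alternatives, and the fitted change of MS4A14 in the control group against 0 h from 3.22 (without 0 h replicate 2) to 7.56 (without 0 h replicate 1). That of MS4A6A ranged from 8.44 to 11.3, without 0 h replicates 1 and 2 in turn. In the CTCF-depleted group against 0 h the ranges were 3.93 to 8.27 for MS4A14 and 8.02 to 10.88 for MS4A6A. The cause of these shifts was not tested.

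Replicate numbers shared by the groups showed no pairing of the samples, with correlations of replicate differences of -0.0194, 0.0109 and -0.0294. Noise at low counts also weakens such correlations, so they cannot show that the samples were unpaired. The fit with a replicate block called 3 members higher and 1 lower over the conversion and 0 between the 96 h groups, and moved the counts over the whole table between the 96 h groups to 785 higher and 1033 lower.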

Other observations

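Genes listed as markers of other blood cells changed beside the MS4A members. All 12 granulocyte-monocyte progenitor and granulocyte markers rose over the conversion, at a summed level of 19.7 and 19.95 CPM at 0 h and of 4440 and 4210 CPM in the control replicates. S100A9, S100A8 and FCN1 had 0 counts at 0 h and control means of 3140, 756 and 207 CPM, which made up most of that sum. CSF3R rose by 6.76 on the log2 scale, and MPO had a control mean of 8.41 CPM. MS4A3, which marks granulocyte-monocyte progenitors, had 1 count in all 6 libraries. Between the 96 h groups the summed level was 3364 and 3053 CPM in the CTCF-depleted replicates, and MPO fell by 0.70 on the log2 scale, the only called gene of the list.

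Within the macrophage list, CTCF depletion moved genes in both directions, with 2 higher (ITGAM by 1.15 and CD86 by 0.85) and 4 lower (VSIG4 by 2.55, MRC1 by 1.33, CLEC7A by 0.71 and C1QC by 0.69). The shares called over all genes tested were 5.41% higher and 7.03% lower. Over the conversion the smallest adjusted p in this list were those of LYZ, ITGAM, CSF1R and CD68. In the B cell list the genes called on CTCF depletion were CD22 (1.47) and VPREB3 (1.34), which were higher, and RAG1, VPREB1, FCER2, POU2AF1 and IGLL1, which were lower, at already low 96 h levels for most of them. RAG1, DNTT, IGLL1 and BLK had the smallest adjusted p among B cell markers that fell over the conversion, and FCER2 was the marker that rose.

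Of 8 mast cell and basophil markers 2 were tested. CPA3 rose from 0 counts to 21 and 16, and KIT fell from 20 and 50 counts to 1 and 1. Of 8 T and NK cell markers 3 were tested. CD2 rose from 0 counts to 40 and 38 and NKG7 by 3.68 on the log2 scale, while CD3D and CD3G had no read in any library. The part of other cell types in the MS4A results was not tested.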
